A study of Mus musculus with 12 samples.

Results

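The transcripts described here encode Toll-like receptors and the proteins that hand lipopolysaccharide (LPS) to them, in mouse thioglycolate-elicited peritoneal macrophages (PMφs). They were chosen by name, as the rows for Tlr1, Tlr2, Tlr4, Tlr6, Tlr7, Tlr8, Tlr9, Tlr13, Cd14 and Ly96, and make up 10 of the 43278 gene symbols in the table. PMφs came from wild-type C57BL/6J mice of both sexes, 8 to 12 weeks old, which had received 1 ml of 4% aged thioglycolate, a broth that draws macrophages into the peritoneum, and were harvested by lavage after 4 days. According to the methods, each pool held cells of up to 10 mice and was divided among 4 groups, and adherent cells were used after 18 h in culture. Control PMφs received neither agent, oxLDL PMφs received 100 µg/ml of human medium oxidized low-density lipoprotein (oxLDL) for 24 h, LPS PMφs received 10 ng/ml of ultrapure LPS, and oxLDL+LPS PMφs received both, oxLDL first. For how long these cultures saw LPS is not stated in the labels, and the methods describe stimulation for up to 6 h. Each group had 3 poly(A) RNA libraries, numbered 1 to 3 in the labels. The comparisons ask how each treatment, and one treatment in the presence of the other, changed the RNA of these receptors.

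Toll-like receptors are membrane proteins that recognise microbial molecules and signal through adaptors such as Myd88. Tlr2 pairs with Tlr1 or Tlr6 at the cell surface and recognises bacterial lipopeptides. Tlr4 recognises LPS as a complex with Ly96, also known as MD-2, and Cd14 is the co-receptor that delivers LPS to that complex. Tlr7, Tlr8, Tlr9 and Tlr13 lie in endosomes and recognise nucleic acids: Tlr7 and Tlr8 are RNA receptors, Tlr9 recognises CpG DNA, and Tlr13 recognises bacterial ribosomal RNA. Macrophages carry many of these receptors and are a main source of inflammatory cytokines when they are engaged.

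Values are normalized counts as deposited, which already carry 1 size factor per library, and all 10 transcripts were above 100 in every library. Normalized counts summed to 17152972 to 17709731 in the 6 libraries without LPS and to 22071853 to 26384551 in the 6 with LPS, and the spacing of the values implies 16700000 to 26200000 reads per library. Because the sums follow LPS, the comparisons were also made after scaling every library to the same total, an alternative chosen after the values were seen. The 7 macrophage markers examined (Adgre1, Cd68, Csf1r, Itgam, Mertk, Lyz2 and Fcgr1) were at 10 or more in every library, with sums of 230743 to 324472, most of which was Lyz2. LPS raised 3 of them in PMφs without oxLDL, Adgre1 (Emr1 in the table) by 1.53, Mertk by 1.31 and Fcgr1 by 2.81 on the log2 scale (limma, adjusted p = 0.00353, 0.000655 and 0.00122), and the other 4 were not called, although with libraries scaled to equal totals those 4 were called lower. The treatments were visible in their check genes. Tnf was 61 to 68 in control libraries and 36687, 65418 and 85240 in LPS libraries 1, 2 and 3, and the oxLDL receptor Cd36 was 32725 to 40346 in control and 53483 to 93423 in oxLDL libraries. The sex genes differed by number. Control and oxLDL libraries 1 had 1 and 2 counts of Xist, which female cells express, and Y-linked sums of 3138 and 3009, whereas LPS and oxLDL+LPS libraries 1 had 6331 and 3812 for Xist and Y-linked sums of 1023 and 1004. Libraries 2 had Y-linked sums of 0 to 2 in all 4 groups, and libraries 3 held both sexes in all 4. Libraries 1 with and without LPS therefore do not have the same mix of sexes, and the LPS comparisons were also made without them. Transcripts of mesothelial cells and fibroblasts also followed the number, with sums over 7 markers of 11747 to 19602 in libraries 1, 8498 to 10627 in libraries 2 and 3341 to 3856 in libraries 3. In bulk RNA, fewer cells of a type and less RNA per cell cannot be told apart.

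On GRCm38, Tlr1 (chr5:64924679-64933563) and Tlr6 (chr5:64952031-64960097) lie next to each other on the minus strand. Tlr2 lies at chr3:83836272-83841767 on the minus strand, Tlr4 at chr4:66827584-66930284 on the plus strand and Ly96 at chr1:16688051-16709611 on the plus strand. Tlr9 lies at chr9:106222598-106226883 on the plus strand. Cd14 lies on the minus strand, in 1 exon block. Tlr7 (chrX:167304929-167330558) and Tlr8 (chrX:167242696-167264329) are neighbours on the minus strand of chromosome X, and Tlr13 (chrX:106143204-106160493) is on its plus strand. In that annotation no other gene shared exonic sequence with any of the 10. Tlr1 and Tlr6 had 139 identical 150-base stretches, the read length of the libraries, which is 4.8% of the stretches of the Tlr1 transcript and 3.9% of those of Tlr6, and the other 8 shared none with each other or with this pair. Reads lying wholly within those stretches match both genes, and how such reads were counted is not stated in the sources used here.

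RefSeq promoter windows on GRCm38.p6, from 250 bases before to 50 bases after the start, matched 6 of the 10 genes with 8 windows. The windows of Tlr2 and Tlr13 are printed because their transcripts moved furthest in opposite directions under LPS among the 10. Capitals mark matches to the κB consensus, the motif bound by NF-κB, searched on both strands.
Tlr2, chr3:83841559-83841858, minus strand: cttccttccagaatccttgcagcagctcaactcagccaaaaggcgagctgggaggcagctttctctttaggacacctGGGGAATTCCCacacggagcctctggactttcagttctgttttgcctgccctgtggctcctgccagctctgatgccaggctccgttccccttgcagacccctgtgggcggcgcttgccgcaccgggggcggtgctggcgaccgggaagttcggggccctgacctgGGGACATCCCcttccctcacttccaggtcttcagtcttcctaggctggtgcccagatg
Tlr13, chrX:106143025-106143324, plus strand: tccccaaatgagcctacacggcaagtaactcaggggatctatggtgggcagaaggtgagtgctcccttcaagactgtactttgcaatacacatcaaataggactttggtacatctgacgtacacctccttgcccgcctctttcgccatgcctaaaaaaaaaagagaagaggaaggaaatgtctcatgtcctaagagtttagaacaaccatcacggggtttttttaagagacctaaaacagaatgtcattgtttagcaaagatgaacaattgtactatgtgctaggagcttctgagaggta
The Tlr2 window held the consensus with first bases at 173, 172 and 8 bases before the start, the first pair overlapping, and the Tlr13 window held none. The consensus was also absent from the windows of Tlr1, Tlr6 and Tlr8, whose transcripts rose with LPS too, and of Tlr9. Of 32851 windows of 300 bases, 4.51% held it. The AP-1 motif TGANTCA, present in 7.81% of windows, was found in the Tlr9 window. The interferon response element core, GAAA and again GAAA after any 2 bases, present in 3.44%, was found in 1 of the Tlr6 windows, as a pair of matches. The PU.1 core GAGGAA, present in 28.3%, was found for Tlr1, Tlr8, Tlr9 and Tlr13. A match is a run of letters, and binding was not measured.

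Without treatment, Tlr13 had the highest level of the 10 per kilobase of exon, at 1824 ± 155 normalized counts per kb (SD, n = 3). Cd14 followed at 836 ± 77.7, and then Tlr8 at 540 ± 131 and Tlr7 at 447 ± 94.2, whose ranges overlapped. Tlr4 at 261 ± 12.8 and Ly96 at 248 ± 24.9 were level within their ranges, as were Tlr2 at 161 ± 28.5 and Tlr1 at 154 ± 23.4. Tlr6 at 94.1 ± 10.6 and Tlr9 at 59.6 ± 11.2 were lowest, and their ranges did not overlap. In LPS PMφs the order per kb became Cd14 at 11542 ± 1864, Tlr2 at 6393 ± 2693 and Tlr7 at 2860 ± 714. Ranges overlapped between each neighbouring pair of Tlr7, Tlr8, Tlr1 and Tlr13 in that order, and Tlr4 at 209 ± 42.6 and Tlr9 at 89.3 ± 46.4 stood last. Tlr13 thus went from first to the sixth place. Lengths were taken from a later annotation than the one the counts were made with.

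**Figure D1:**
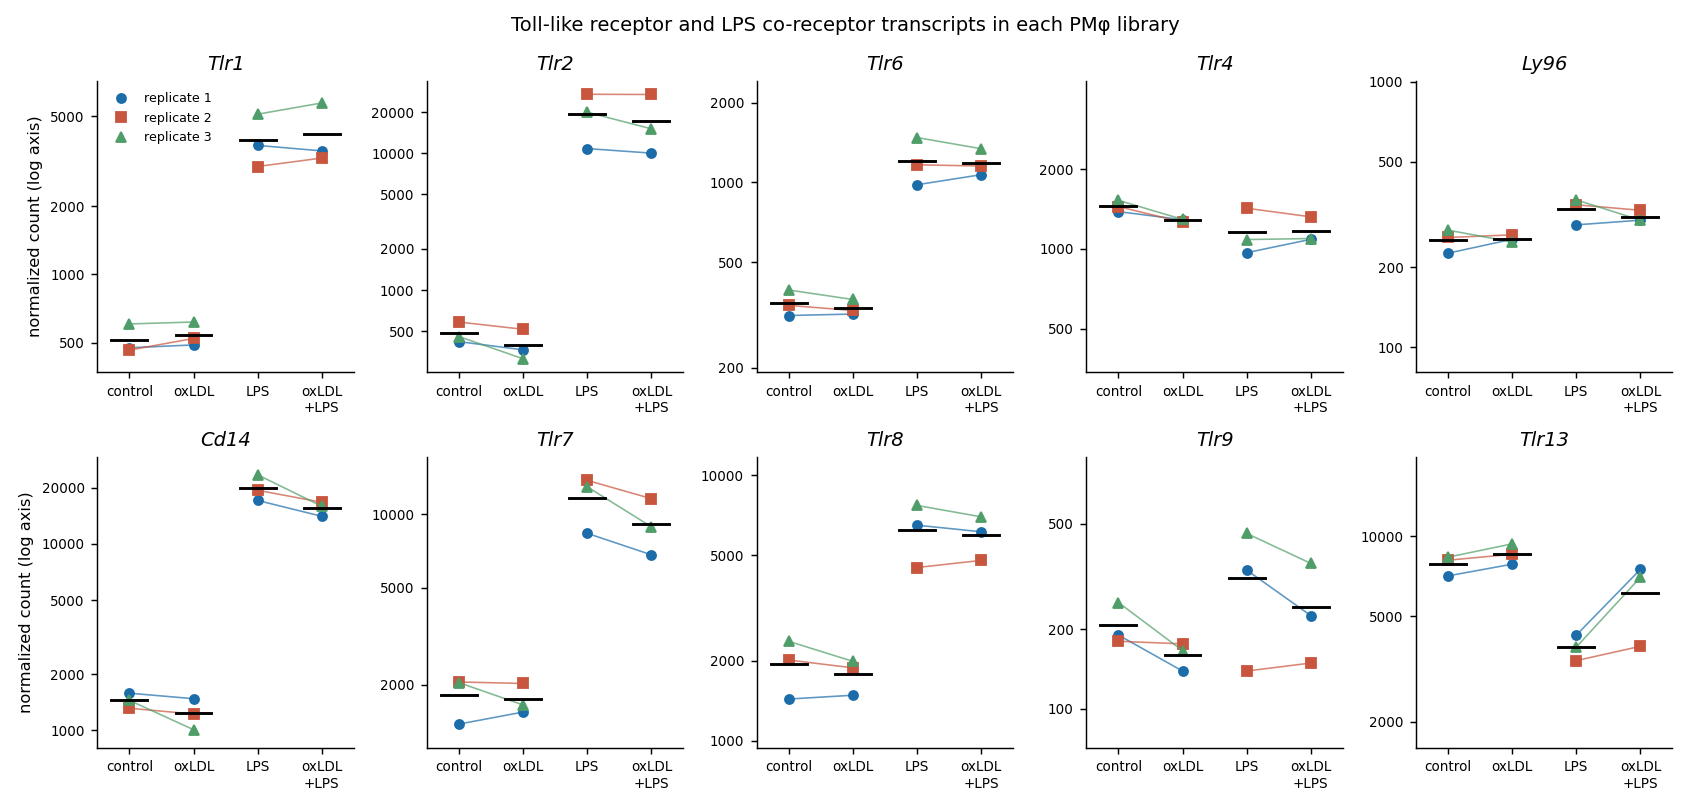
Normalized count of each of the 10 transcripts in the 12 libraries, on log axes with a separate range per gene. Marks show the replicate number, thin lines join libraries of the same number within an LPS state, and black bars are group means. On this deposited scale Tlr1, Tlr2, Tlr6, Ly96, Cd14, Tlr7 and Tlr8 lie higher in each LPS group than in the matching group without LPS, with no overlap, and Tlr13 lies lower; scaled to equal totals, Ly96 turns to -0.10 and -0.12 on the log2 scale.

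LPS changed 9 of the 10 transcripts in PMφs without oxLDL (limma, Benjamini-Hochberg adjusted p under 0.1), 7 upward and 2 downward. Of these directions that of Ly96 turned on the scaling. LPS moved much of the transcriptome, and 61.7% of the 13023 genes tested were called, 31.4% higher and 30.3% lower. The median log2 difference of the 10 was 1.72, against -0.00 over all genes tested. With libraries scaled to equal totals, the median of all genes was shifted to -0.48, 2210 genes were called higher and 7200 lower, against 4093 and 3946 on the deposited scale, and 8 of the 10 members were called, 6 higher and 2 lower. In the same comparison the groups did not overlap for 8 of the 10, 7 higher and 1 lower, against 32.1% of genes higher and 31.1% lower.

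The lipopeptide receptors rose together. Tlr2 was 419, 583 and 456 in control libraries 1, 2 and 3 and 10826, 27016 and 19967 in LPS libraries 1, 2 and 3. All LPS libraries were far above all controls, and LPS library 1 was the lowest of the 3. The log2 fold change was 5.22 ± 0.31 (SE, adjusted p = 6.83e-06, limma), or 37.4-fold. Tlr1, a partner of Tlr2, was 474, 463 and 604 in control and 3710, 2994 and 5097 in LPS libraries, a log2 fold change of 2.91 ± 0.20 (adjusted p = 1.47e-05). Tlr6, the other partner, went from 315, 344 and 393 to 980, 1165 and 1476, a log2 fold change of 1.77 ± 0.16 (adjusted p = 7.06e-05). Library 3 was the highest of its group for Tlr1 and Tlr6 in both groups, whereas library 2 was the highest for Tlr2.

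The LPS receptor complex did not move as a unit. Cd14, its co-receptor, was 1583, 1314 and 1448 in control and 17104, 19390 and 23478 in LPS libraries. These groups lay far apart, and the log2 fold change was 3.78 ± 0.14 (adjusted p = 6.22e-07), or 13.7-fold. Ly96, which binds LPS within the complex, went from 226, 259 and 276 to 289, 344 and 359, a smaller rise of 0.38 ± 0.14 (adjusted p = 0.0473). The 3 LPS libraries were all above the 3 controls, but the call was lost without control library 1 (adjusted p = 0.153), LPS library 2 (0.107) or LPS library 3 (0.134), and the direction turned with libraries scaled to equal totals (-0.10, adjusted p = 0.466), so that the adjusted p ranged from 0.0125 to 0.466 over the alternatives. Tlr4, the signalling receptor itself, was 1383, 1445 and 1525 in control and 968, 1424 and 1085 in LPS libraries, with LPS library 2 inside the control range. Its log2 fold change was -0.34 ± 0.14 (adjusted p = 0.08), and the adjusted p ranged from 0.00153 over the alternatives, with equal totals (-0.83), to 0.243. Leaving out any 1 library other than LPS library 2 ended the Tlr4 call, with adjusted p from 0.123 to 0.202, and without libraries 1 of both groups it was 0.243.

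The endosomal receptors split. Tlr7 was 1381, 2054 and 2040 in control and 8341, 13746 and 12931 in LPS libraries, a log2 fold change of 2.67 ± 0.23 (adjusted p = 4.63e-05). Tlr8 was 1434, 2012 and 2366 in control and 6485, 4490 and 7697 in LPS libraries, a log2 fold change of 1.68 ± 0.24 (adjusted p = 0.000674). The groups did not overlap for either gene, and library 2 was the highest LPS library for Tlr7 but the lowest for Tlr8. Tlr13 moved the other way, from 7089, 8123 and 8338 to 4239, 3397 and 3820, a log2 fold change of -1.04 ± 0.12 (adjusted p = 0.000181), or 2.06-fold lower between the groups. All 3 LPS libraries lay below all 3 controls. Under 2 of the other scalings Tlr13 was lower still, at -1.74 with quantile normalization and -1.53 with equal totals. These 3 genes are X-linked, and without libraries 1 of both groups, where the sexes differed, all 3 kept their direction and their call. Tlr9 was 190, 180 and 252 in control and 334, 139 and 459 in LPS libraries, so that LPS library 2 was below every control while the other two were above. Its log2 fold change of 0.43 ± 0.40 did not pass (adjusted p = 0.396), but without LPS library 2 it was 0.93 (adjusted p = 0.00992), and adjusted p ranged from 0.00127 to 0.923 over the alternatives, the highest with equal totals, where the difference was -0.05. Of the B cell markers, whose cells also express Tlr9, the 5-gene sum (Cd79a, Cd79b, Ms4a1, Pax5 and Ighm) was 184, 182 and 317 in control and 250, 147 and 265 in LPS libraries. Pax5 was at most 5 in any library.

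Other cell type markers also moved with LPS. Of 4 markers of large peritoneal macrophages, Timd4 was 4 to 16 in control and 152 to 230 in LPS libraries, and Icam2 58 to 83 and 85 to 105. The groups overlapped for Gata6 (186 to 374 and 112 to 424) and Selp (22 to 71 and 58 to 104). The 5-gene T cell sum was 18 to 21 in control and 103 to 240 in LPS libraries, almost wholly from Lck, with Cd3e at 0 to 2 in every library. The 7-gene neutrophil sum was 40 to 63 and 81 to 180, with Ly6g at 0 in every library. S100a8 made up most of it, at 31 to 37 and 74 to 178, while Ltf was 6 to 25 and 1 to 2. The 6-gene dendritic cell sum was 58 to 91 and 108 to 134, but its genes went opposite ways: Clec9a was 15 to 37 and 4 to 8, and Zbtb46 29 to 52 and 65 to 84. The 8-gene mast cell and eosinophil sum was 371 to 440 and 173 to 193, with Prg2 at 0 throughout. Siglecf made up most of it and accounted for the fall, at 315 to 383 and 99 to 124. Cpa3 was 13 to 16 and 16 to 25, Cma1 10 to 17 and 6 to 18, and Tpsb2 20 to 29 and 18 to 44. The part of such cells in the receptor values was not tested.

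In oxLDL-loaded PMφs, 7 of the 10 transcripts were called, all higher, against 54.5% of 12900 genes (28.2% higher, 26.3% lower). They were the 7 that LPS raised without oxLDL, and Ly96 among them again turned with equal totals. That scaling shifted the median of all genes to -0.40 and the genes called from 3633 higher and 3397 lower to 2055 and 6618, and it called 6 members higher and 2, Tlr4 (-0.53) and Tlr13 (-0.94), lower. Tlr2 went from 365, 516 and 314 in oxLDL to 10028, 26925 and 15095 in oxLDL+LPS libraries, a log2 fold change of 5.35 ± 0.35 (adjusted p = 2.39e-05). Cd14 went from 1479, 1224 and 1009 to 14066, 16728 and 15926, a log2 fold change of 3.67 ± 0.15 (adjusted p = 2.44e-06). Tlr1 went from 488, 521 and 616 to 3510, 3263 and 5712, a log2 fold change of 2.90 ± 0.21 (adjusted p = 4.15e-05). In these 3 genes every oxLDL+LPS library exceeded every oxLDL library by a wide margin.

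Tlr7 went from 1547, 2025 and 1653 to 6813, 11571 and 8875, a log2 fold change of 2.36 ± 0.20 (adjusted p = 7.76e-05). Tlr8 went from 1482, 1880 and 1989 to 6124, 4776 and 6974, and Tlr6 from 319, 329 and 362 to 1069, 1153 and 1340. Their log2 fold changes were 1.73 ± 0.17 (adjusted p = 0.000156) and 1.81 ± 0.11 (adjusted p = 1.8e-05). Library 2 was again the highest with LPS for Tlr7 and the lowest for Tlr8.

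Ly96 went from 255, 265 and 249 to 301, 328 and 301, a rise of 0.27 ± 0.10 (adjusted p = 0.066, 0.0505 to 0.359 over the alternatives) that became -0.12 (adjusted p = 0.359) with equal totals. That call was lost without oxLDL library 1, 2 or 3 or without oxLDL+LPS library 2 or 3, with adjusted p from 0.113 to 0.166. Tlr4 was 1289, 1261 and 1293 in oxLDL and 1087, 1322 and 1095 in oxLDL+LPS libraries, with library 2 the only one of the oxLDL+LPS group above the oxLDL range. Its log2 difference was -0.14 ± 0.10 (adjusted p = 0.282), and without oxLDL+LPS library 2 it was -0.23 and called (adjusted p = 0.0455, over a range of 0.00234 to 0.645). Tlr9 was 139, 176 and 166 in oxLDL and 225, 149 and 354 in oxLDL+LPS libraries, a difference of 0.51 ± 0.30 (adjusted p = 0.20). Without oxLDL+LPS library 2 it was 0.82 and called (adjusted p = 0.0248, over a range of 0.00511 to 0.735).

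Tlr13 was 7846, 8551 and 9361 in oxLDL and 7499, 3846 and 7001 in oxLDL+LPS libraries. The groups did not overlap, but oxLDL+LPS libraries 1 and 3 lay just under the oxLDL range and library 2 far under it. The log2 difference of -0.55 ± 0.24 missed the threshold (adjusted p = 0.108) and passed with the replicate number as a block (-0.55 ± 0.19, adjusted p = 0.052; that fit called 63.4% of genes, 32.0% higher and 31.4% lower), with a range of 0.00311 to 0.235 over the alternatives. It was also called without oxLDL+LPS library 1 (-0.72, adjusted p = 0.0559) or library 3 (-0.67, adjusted p = 0.0952), whereas without library 2 it shrank to -0.24 and was not called (adjusted p = 0.107). Libraries 1 of oxLDL and oxLDL+LPS had different sex genes, so the block does not join the same pool of cells in number 1. Altogether the groups of 8 transcripts did not overlap, 7 higher and Tlr13 lower, against 29.6% of genes higher and 28.0% lower.

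**Figure D2:**
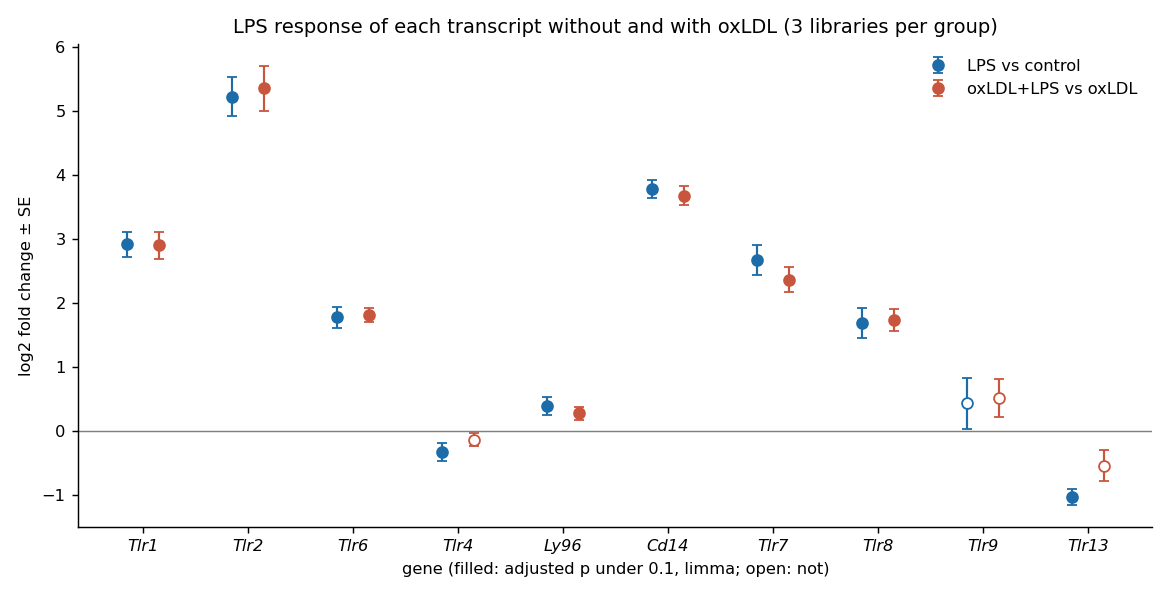
Log2 fold change (± SE) of each transcript with LPS, in PMφs without oxLDL (LPS against control) and with oxLDL (oxLDL+LPS against oxLDL), 3 libraries per group. Filled marks passed an adjusted p of 0.1 in limma and open marks did not. The paired marks lie close together for Tlr1, Tlr2, Tlr6 and Cd14, and Tlr13 lies at -1.04 without and -0.55 with oxLDL.

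The difference between these LPS responses was tested as the interaction of oxLDL and LPS over all 12 libraries. In limma 0 of the 10 transcripts and 0.0% of 13482 genes passed, while 3.1% of genes, and 0 of the 10, had an unadjusted p under 0.05. The interaction was 0.13 ± 0.53 for Tlr2, -0.01 ± 0.32 for Tlr1 and -0.11 ± 0.21 for Cd14 on the log2 scale. It was larger for Tlr13, at 0.50 ± 0.29 (adjusted p = 1.0), and for Tlr7, at -0.31 ± 0.33 (adjusted p = 1.0). With the replicate number as a block within each LPS state, 1.09% of genes were called (0.408% higher, 0.682% lower) and again 0 of the 10, with Tlr13 at 0.50 ± 0.16 (adjusted p = 0.192). Without libraries 2 that blocked fit called Tlr13 (0.69, adjusted p = 0.00842, over a range of 0.00842 to 1.0). The fit without libraries 2 called 5.78% of 13192 genes, 312 higher and 451 lower.

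In PMφs without LPS, none of the 10 transcripts was called with oxLDL in limma without the block (0 of 10, against 0.0% of 12751 genes called and 2.99% with an unadjusted p under 0.05). The check gene Cd36 was not called in that fit either (0.93 ± 0.21), so a missing call does not show that oxLDL left a transcript unchanged. Tlr4 was the 1 member with an unadjusted p under 0.05. It was 1383, 1445 and 1525 in control and 1289, 1261 and 1293 in oxLDL libraries, a log2 difference of -0.18 ± 0.06 (adjusted p = 1.0). The groups did not overlap for Tlr4 or for Tlr9, which was 190, 180 and 252 in control and 139, 176 and 166 in oxLDL libraries (-0.36 ± 0.16, adjusted p = 1.0). Genes that were lower without overlap made up 3.91% of all, and genes that were higher 3.79%.

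Libraries of the same number resembled each other, and the fit with the number as a block called 4.71% of genes (1.8% higher, 2.92% lower) and 2 of the 10, both lower. Tlr2 fell by 0.20, 0.18 and 0.54 in numbers 1, 2 and 3 on the log2 scale, a mean of -0.30 ± 0.08 in the blocked fit (adjusted p = 0.0762, with 0.0762 to 1.0 over the alternatives). Tlr4 fell by 0.10, 0.20 and 0.24, a mean of -0.18 ± 0.05 (adjusted p = 0.083, with 0.0466 to 1.0 over the alternatives). Both genes were lower with oxLDL in 3 of 3 numbers. Neither call stood in every blocked fit of 2 numbers: without number 1 or number 2 none of the 10 was called, and without number 3 Tlr4 was again (-0.15, adjusted p = 0.0466), together with Tlr13 (0.11, adjusted p = 0.0281). The fit without number 3 called 10.3% of genes. Such fits have few libraries, and their p-values rest mostly on the variance pooled over genes.

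Of the members that the blocked fit did not call, Cd14 was lower in 3 of 3 numbers, by 0.10, 0.10 and 0.52 (adjusted p = 0.131), and Tlr9 by 0.45, 0.03 and 0.60 (adjusted p = 0.14). Tlr13 was higher in 3 of 3, by 0.15, 0.07 and 0.17 (adjusted p = 0.196), and Tlr1 by 0.04, 0.17 and 0.03 (adjusted p = 0.576). Tlr6, Ly96, Tlr7 and Tlr8 differed in sign between numbers. Number 3 had the lowest difference of the 3 for 9 of the 10 genes, all but Tlr13.

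In LPS-treated PMφs, 0 of the 10 transcripts were again called with oxLDL in limma without the block (0.0% of 12786 genes called, 6.96% with an unadjusted p under 0.05). The blocked fit called 13.2% of genes (4.42% higher, 8.74% lower) and 3 of the 10. Tlr13 showed the widest difference of the 10. It was 4239, 3397 and 3820 in LPS and 7499, 3846 and 7001 in oxLDL+LPS libraries, and the same-numbered differences were 0.82, 0.18 and 0.87 on the log2 scale. Numbers 1 and 3 moved far more than number 2, whose oxLDL+LPS value of 3846 lay inside the LPS range. The mean was 0.63 ± 0.25 without the block (adjusted p = 0.705) and 0.63 ± 0.13 with it (adjusted p = 0.0224).

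The Tlr13 call depended on the libraries, with adjusted p from 8.69e-15 to 0.999 over the alternatives, the lowest in the blocked fit of numbers 1 and 3. That fit called 23.9% of genes. It had few libraries, so its p-value rests mostly on the variance pooled over genes. Without oxLDL+LPS library 2, Tlr13 was called with no block (0.93, adjusted p = 0.0714), as were 0.721% of genes. Without number 1 or number 3 the blocked fit called none of the 10. Of the 3 genes used as checks of oxLDL, 2 were also lowest in oxLDL+LPS library 2: Hmox1, a heme oxygenase induced by oxidative stress, was 55988, 12622 and 43842 in oxLDL+LPS libraries, and Cd36 was 59206, 41849 and 64548. The third, the lipid droplet gene Plin2, was not, at 17964, 16335 and 14208. Libraries 2 were also the ones with female cells alone, so sex and pool cannot be told apart there.

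Cd14 was the 1 transcript whose oxLDL+LPS libraries all lay below the LPS libraries, at 14066, 16728 and 15926 against 17104, 19390 and 23478, where 6.39% of genes were lower without overlap and 6.18% higher. Same-numbered differences were -0.28, -0.21 and -0.56, with a mean of -0.35 ± 0.16 without the block (adjusted p = 0.709) and -0.35 ± 0.11 with it (adjusted p = 0.0801, 0.00612 to 0.999 over the alternatives). Tlr7 was lower in 3 of 3 numbers, by 0.29, 0.25 and 0.54, although the groups overlapped, with 8341, 13746 and 12931 in LPS and 6813, 11571 and 8875 in oxLDL+LPS libraries. Its mean was -0.36 ± 0.26 without the block (adjusted p = 0.792) and -0.36 ± 0.09 with it (adjusted p = 0.0497, 0.00153 to 0.999 over the alternatives). For both genes the blocked call was lost without number 1 or number 3.

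The differences of the remaining 7 did not pass in either fit. Tlr2 differed by -0.11, -0.00 and -0.40, Tlr9 by -0.57, 0.10 and -0.37, and Tlr4 by 0.17, -0.11 and 0.01. Tlr1, Tlr6, Ly96 and Tlr8 had mean differences of 0.07 ± 0.27, -0.01 ± 0.17, -0.09 ± 0.13 and -0.05 ± 0.23. Cytokine RNA was lower with oxLDL in these libraries, with Tnf at 20752, 45676 and 53561 against 36687, 65418 and 85240 in LPS alone, and the blocked fit called it (-0.67 ± 0.13, adjusted p = 0.0213).

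**Figure D3:**
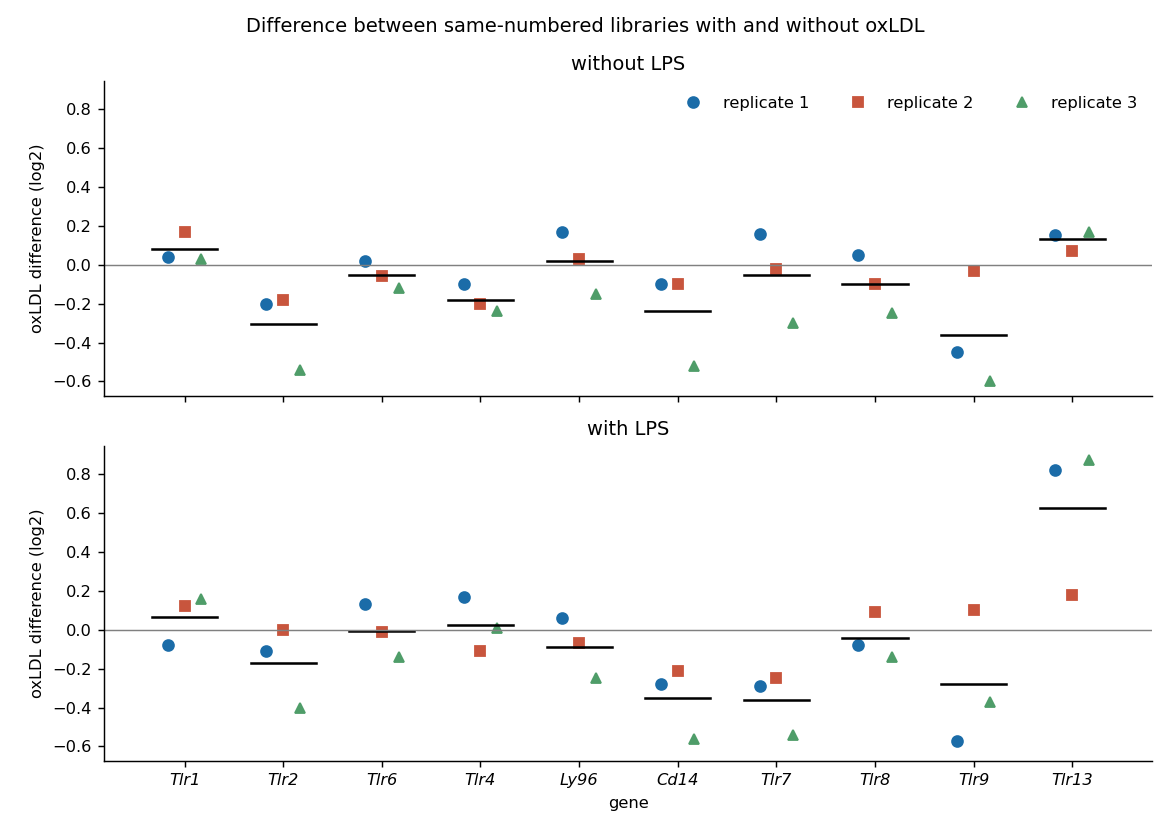
Log2 difference of each transcript between same-numbered libraries with and without oxLDL, above for PMφs without LPS and below for PMφs with LPS. Marks show the replicate number and black bars the mean of the 3. With LPS, Tlr13 lies at 0.82, 0.18 and 0.87, while Cd14 and Tlr7 lie below 0 in all 3 numbers.

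Together these differences changed the RNA makeup of the 8 Toll-like receptors among the 10. Tlr3, which also rose with LPS, was not counted in these shares. The level per kilobase summed over the 8 Toll-like receptors was 3541 ± 433 in control, 3580 ± 299 in oxLDL, 13673 ± 3146 in LPS and 12907 ± 2764 in oxLDL+LPS libraries (SD, n = 3). Tlr13 made up 51.7% ± 2.05 of it in control and 55.7% ± 1.83 in oxLDL libraries. With LPS its share was 6.88% ± 2.55, with 9.78%, 4.97% and 5.89% in libraries 1, 2 and 3, and with both agents it was 17.4%, 5.74% and 12.4%. Tlr2 took the opposite course, with 4.57% ± 0.67 in control, 3.70% ± 0.94 in oxLDL, 45.4% ± 10.5 in LPS and 42.9% ± 12.8 in oxLDL+LPS libraries. Tlr4 made up 7.43% ± 0.63 in control and 1.55% ± 0.23 in LPS libraries. Tlr7 rose from 12.5% ± 1.32 to 20.8% ± 0.49, and Tlr8 was 15.1% ± 1.96 and 13.4% ± 5.09. These shares are descriptions, with no test.

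**Figure D4:**
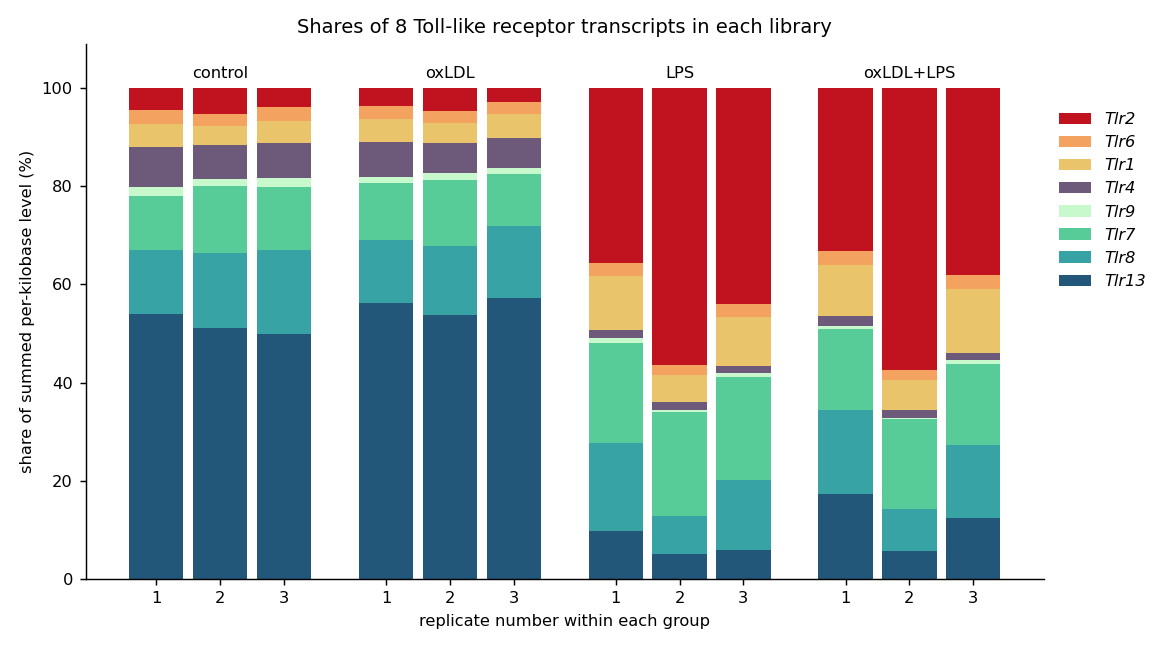
Share of each of 8 Toll-like receptors in their summed level per kilobase of exon, for every library (stacked to 100%), ordered by group and replicate number. Tlr13 fills 49.9% to 57.2% of each bar without LPS, and with LPS Tlr2 fills 33.1% to 57.4%.

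Ratios within a library do not depend on its scaling. Cd14 to Tlr4, per kilobase, was 3.67, 2.92 and 3.05 in control and 56.7, 43.7 and 69.4 in LPS libraries, with geometric means of 3.20 and 55.6. With oxLDL the geometric means were 3.06 without and 42.8 with LPS. Tlr2 to Tlr4 was 0.56, 0.74 and 0.55 in control and 20.6, 35.0 and 33.9 in LPS libraries. Thus the co-receptor and the lipopeptide receptor gained on Tlr4 in each LPS library. Ly96 to Tlr4 was close to parity in control libraries, at 0.89, 0.98 and 0.98, and was 1.08, 1.14 and 1.05 with oxLDL and 1.62, 1.31 and 1.8 with LPS. Tlr1 to Tlr6 was 1.68, 1.5 and 1.71 in control and 4.22, 2.86 and 3.85 in LPS libraries. Tlr7 to Tlr8 was 0.85, 0.90 and 0.76 in control and 1.13, 2.69 and 1.48 in LPS libraries, and 0.98, 2.13 and 1.12 with both agents, where library 1 stayed under parity. Of 20 exact two-sided permutation tests (5 ratios in 4 comparisons), 11 reached p = 0.1, the smallest that 3 against 3 allows (adjusted p = 0.182): all 5 ratios with LPS, in PMφs without and with oxLDL, and Ly96 to Tlr4 in oxLDL against control. None can pass 0.05 in this design.

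**Figure D5:**
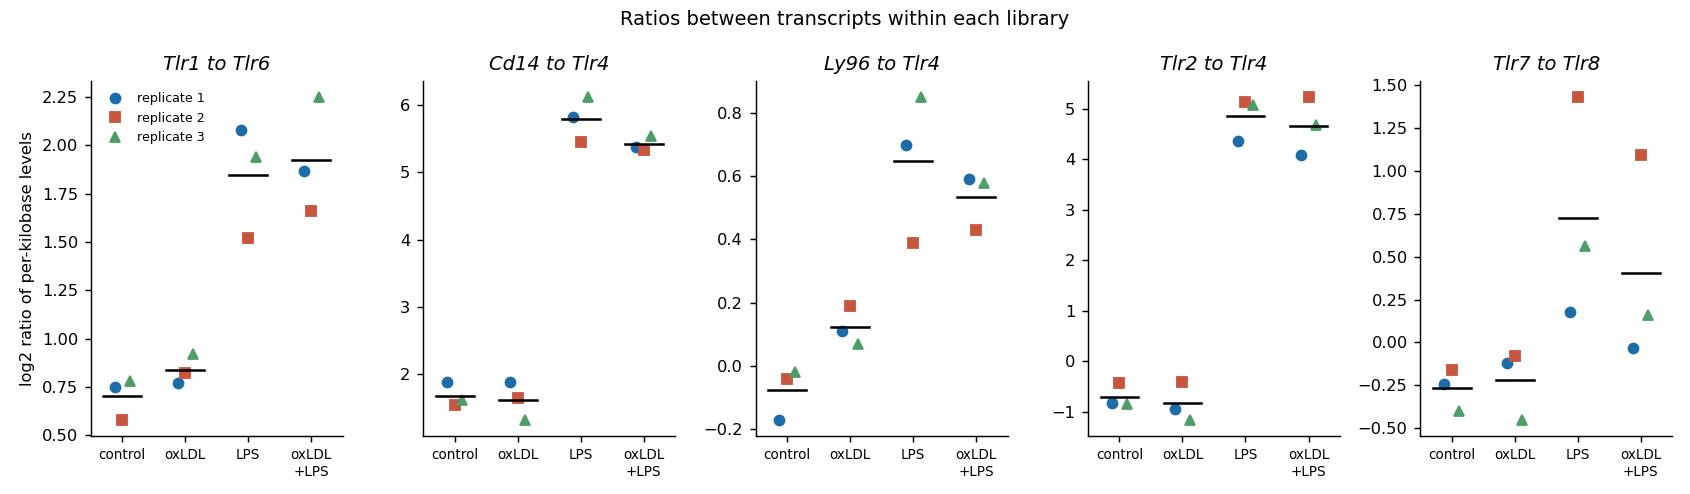
Log2 ratio of per-kilobase levels within each library for 5 pairs of transcripts, by group. Marks show the replicate number and black bars the group mean, and each panel has its own range. The ratios of Cd14 and Tlr2 to Tlr4 lie between -1.16 and 1.88 without LPS and between 4.09 and 6.12 with it.

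Of the 4 other mouse Toll-like receptors, Tlr3, which recognises double-stranded RNA, was measured well. It was 171, 212 and 232 in control and 3461, 4761 and 3906 in LPS libraries, a log2 fold change of 4.29 ± 0.16 (adjusted p = 6.48e-07). With oxLDL it went from 194, 228 and 228 to 2370, 4269 and 2431, a log2 fold change of 3.74 ± 0.23 (adjusted p = 1.55e-05). Its oxLDL+LPS libraries were lower than the LPS libraries of the same number by 0.55, 0.16 and 0.68, which the blocked fit called (-0.46 ± 0.10, adjusted p = 0.0304) and the fit without the block did not. Tlr5, the flagellin receptor, and Tlr11 and Tlr12 were at 15 or less in every library and were not tested.

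A further list held receptor accessory, trafficking and protease genes, with Lbp, Cd180, Ly86 and Cd36 among them. Genes of this list were called with LPS in both directions, in shares near those of all genes (31.4% higher and 30.3% lower). Of 14 such genes, 4 rose and 5 fell in PMφs without oxLDL, and 2 rose (Ap3b1 and Ly86) and 9 fell with libraries scaled to equal totals. That scaling called 2210 of all 13023 genes higher and 7200 lower. Unc93b1, which carries the endosomal receptors, rose from 7810, 8157 and 10764 to 12298, 12517 and 16354 (0.63 ± 0.17, adjusted p = 0.0145; 0.14 and not called with equal totals, adjusted p = 0.385). Cd180 and its partner Ly86, which resemble Tlr4 and Ly96, rose by 0.60 ± 0.09 and 1.14 ± 0.17 on the log2 scale (adjusted p = 0.000974 and 0.000846), and Ap3b1, a subunit of the AP-3 sorting complex, by 1.07 ± 0.09 (adjusted p = 5.47e-05). Cnpy3, a chaperone for several Toll-like receptors, fell from 1175, 1291 and 1305 to 691, 764 and 653 (-0.84 ± 0.10, adjusted p = 0.000238). Cnpy4, the protease Lgmn, the lysosomal transporter Slc15a4 and Cd36 fell too, by 0.88, 0.65, 0.86 and 0.41. In oxLDL-loaded PMφs the same 4 genes rose and 4 of these 5 fell, with Cd36 not called (-0.36 ± 0.26, adjusted p = 0.295). Of all genes, 28.2% were higher there and 26.3% lower. Cd36 was called lower there with the replicate block (adjusted p = 0.0362) and with equal totals (-0.75, adjusted p = 0.0411), and the latter called 3 of the 14 higher, without Unc93b1, and 9 lower. With equal totals 2055 of all 12900 genes were called higher there and 6618 lower.

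Of 14 adaptor and kinase genes tested, 9 rose and 2 fell with LPS, against 31.4% of all genes higher and 30.3% lower. Myd88, the adaptor shared by most of the receptors, rose from 592, 657 and 612 to 3582, 4129 and 4298 (2.68 ± 0.10, adjusted p = 7.03e-07). Ikbke, Pik3ap1, Tab2, Tbk1, Irak2, Traf3, Traf6 and Tirap also rose, whereas the kinases Irak1 and Irak4 fell, by 0.55 and 0.39. With equal totals 7 rose and 4 fell (2210 and 7200 of all 13023 genes), and Traf3 and Traf6 turned to -0.11 and -0.13, neither called. In oxLDL-loaded PMφs the same 9 rose on the deposited scale, with Traf6 at -0.02 and not called with equal totals, and Irak1 alone fell (all genes: 28.2% higher, 26.3% lower). With equal totals 6 rose and 4 fell there (Irak1, Irak4, Map3k7 and Ticam1), and Traf3 (0.12) and Tirap (0.17) also lost their calls. Of all 12900 genes, 2055 rose and 6618 fell in that fit. Of 5 inhibitors tested, Irak3 rose by 2.65 ± 0.10 and Tnfaip3 by 4.59 ± 0.17, and Tollip fell by 0.36. With equal totals 2 of the 5 rose and 3 fell, Il1rl1 and Rnf216 joining Tollip, against 2210 and 7200 of 13023 genes. The median log2 differences of the 3 lists with LPS were -0.11, 0.52 and -0.05, against -0.00 for all genes.

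In the oxLDL comparisons none of the genes of these lists passed without the block. With it, oxLDL without LPS was accompanied by higher Cd36 (0.93 ± 0.11, adjusted p = 0.0018) and lower Ly86 (-0.31 ± 0.08, adjusted p = 0.0749), Ikbke, Irak2 and Traf3. In LPS-treated PMφs the blocked fit called Cd36 and Cnpy4 higher and Ikbke, Ticam1 and Tnfaip3 lower. Tnfaip3 was 18958, 18506 and 28578 in LPS and 9607, 13875 and 15314 in oxLDL+LPS libraries (-0.77 ± 0.12, adjusted p = 0.0106). It was the 1 gene of these lists with a blocked interaction that passed (-0.94 ± 0.14, adjusted p = 0.0463).

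Across the 12 libraries, which share groups and numbers, the transcripts most like each member on the log2 scale were found by Pearson r, as a description. Tlr2 was followed most closely by Tapbp (r = 0.999) and Fabp3 (0.998), Cd14 by Slfn2 (0.999) and Slc44a1 (0.998), and Tlr7 by H2-T24 and Acsl5 (both 0.997). Tlr1 was followed by Tbk1 (0.996) and Casp1 (0.995), Tlr6 by Syk (0.997) and Trim25 (0.996), Tlr8 by Pik3ap1 (0.993) and Lrch3 (0.986), and Ly96 by Cdc42 (0.965) and Cr1l (0.96). Such values were common, since 2334 of 13482 genes had r above 0.9 with Tlr2. Tlr13 was most like Golim4 (0.984) and Slc43a2 (0.982), with 274 genes above 0.9. Tlr4 and Tlr9 followed few genes, with 3 and 4 above 0.9, among them Gm26606 (0.911) and Lrp12 (0.904) for Tlr4 and Gpatch2l (0.942) and Mospd2 (0.923) for Tlr9. Among the members themselves, Tlr2 and Cd14 had r = 0.99 and Tlr7 and Tlr13 had r = -0.84.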

How the data were processed

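Thioglycolate-elicited PMφ libraries (3 each of control, oxLDL, LPS and oxLDL+LPS) were analysed from 1 table. For these values the authors used Trimmomatic 0.32 for trimming, STAR 2.5.1b with the mm10 genome (GRCm38) for alignment, and featureCounts with a GENCODE annotation for counting. The deposited signal (normalized count) holds whole numbers, and their spacing shows 1 size factor for each library, applied before rounding; reads were not recovered, so count tests were not run although edgeR had been planned for raw counts. Whether counting used strand is not stated in the sources used here.

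Groups were compared with limma 3.58.1 (R 4.3.3; lmFit and eBayes with a variance trend) on log2(value + 1) for genes with at least 10 in at least 3 libraries compared, adjusted by Benjamini-Hochberg over all genes and called at 0.1, the threshold of the study. The fits were also run on simulated counts, drawn for each library on its own. These held no effect shared by number, so they do not show how the fits behave on paired libraries. P-values measure the spread between these libraries. Ratios were compared by exact permutation (SciPy 1.17.1). Folds are on the log2(value + 1) scale. LPS against control and oxLDL against control share the control libraries, and LPS libraries are shared likewise.

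Deviations from group means of same-numbered libraries correlated at 0.691 to 0.731 between control and oxLDL, 0.664 to 0.733 between LPS and oxLDL+LPS, and 0.305 to 0.665 across LPS states (11186 genes). The methods describe pools divided among groups, and the numbers were used as a block in an alternative. The sex genes of number 1 differed between LPS states, so number 1 does not stand for 1 pool across them. Other alternatives were the filter, pseudocount, scaling (equal library totals added after seeing the data), variance trend, 1 fit of all 12 libraries and leaving out libraries. Positions and exon lengths came from GENCODE M21, promoters from RefSeq GRCm38.p6. Named genes were the 10 members, genes of lists of partner, adaptor, inhibitor and marker genes, treatment checks and the 2 genes most like each member. Members and lists were chosen with earlier results of these data known. A spreadsheet had turned 25 symbols into dates, and these were left unassigned. 1 marker gene is not reported here.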

Additional observations from a re-analysis of the deposited data

How the results depend on the processing

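Over 1030 combinations of a member, comparison and alternative, 979 stayed on the same side of the threshold, 21 lost a call, 28 gained one and 2 reversed a called direction, while in 65 the sign of an uncalled difference changed. The 2 were Ly96 with libraries scaled to equal totals, at -0.10 for LPS against control and -0.12 for oxLDL+LPS against oxLDL. That scaling, chosen after seeing the data, called 8 members in each, Tlr4 and Tlr13 lower in both. LPS against control called 9 of the 10 members, and 7 to 10 over the alternatives and fits without 1 library, and oxLDL+LPS against oxLDL called 7, with a range of 6 to 9. The alternative without libraries 1 of both groups, added after seeing the data, called 8 and 6. Quantile normalization shifted the median log2 difference of all genes to -0.14 and -0.13 in these 2 comparisons, moved the genes called with LPS from 4093 higher and 3946 lower to 3241 and 4833 without oxLDL and from 3633 and 3397 to 2843 and 4286 with it, and called Tlr4 (-0.39) and Tlr13 (-1.14) lower in the second.

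The replicate block moved the members called from 0 to 2 for oxLDL against control and from 0 to 3 for oxLDL+LPS against LPS, and left the interaction at 0. In blocked fits of 2 numbers these counts were 0 to 2, 0 to 4 and 0 to 1. Leaving out 1 library with no block gave 0 to 0 for oxLDL against control, 0 to 1 for oxLDL+LPS against LPS, the 1 being Tlr13 without oxLDL+LPS library 2, and 0 to 0 for the interaction. The genes called by the block for oxLDL against control numbered 601, and 214, 139 and 1285 without numbers 1, 2 and 3. For oxLDL+LPS against LPS they numbered 1682, and 71, 2945 and 0. Beyond the members given, the block changed no other call of a member. Libraries 1 with and without LPS had different sex genes, so the block does not join the same pool of cells there. With 3 libraries a group, differences of several standard errors could still miss the threshold. Tlr4 in oxLDL against control, at -0.18 ± 0.06 without the block, was not called. The cause of each lost call was not tested.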
